A study of Mus musculus with 9 samples.

Results

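Type I interferon stimulated genes are the genes that cells switch on after sensing interferon alpha or beta, and 39 of them were followed here by their gene symbols. All 39 symbols stood among the 54427 distinct symbols in the files, and all 39 passed the filter on low counts, which kept 14193 genes. Bulk RNA sequencing had given gene counts for B16-F10 tumours, which arise from a melanoma cell line of the C57BL/6 mouse and were taken 16 days after injection under the skin of such mice, with 3 libraries in each of 3 groups. Control tumours came from cells with a control short hairpin RNA (shcontrol), and the others from cells with hairpin 1 or hairpin 2 against Fbxo38 (shFBXO38#1 and shFBXO38#2). Fbxo38 encodes the substrate-binding part of a ubiquitin ligase. All 9 samples carried the label treatment none. The genotype label was WT for the controls and ran from FBXO38 to FBXO43 knockdown over the 6 hairpin samples, so groups were taken from the titles. The mice were hosts with their own cells, only the injected cells carried a hairpin, and the sources used here do not say whether replicates came from separate animals. The p-values therefore measure the spread between these libraries, which may be technical.

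Type I interferons bind a receptor made of the chains Ifnar1 and Ifnar2, whose kinases Jak1 and Tyk2 activate transcription factors, Stat2 among them. Together with Irf9 these form a complex called ISGF3, which binds a DNA element known as the interferon-stimulated response element. The genes so induced sense, degrade or trap viral nucleic acid and also feed back on the pathway. Interferon gamma, made by activated lymphocytes, acts through a receptor of its own and induces many of the same genes. In tumours such genes are expressed both by the malignant cells and by immune and stromal cells, and a bulk sample cannot tell apart fewer cells of a type and less RNA per cell.

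Start-site sequences of the members were searched for the response element, and the matches are shown because the results turn on genes that vary together. RefSeq start-site windows of 300 bases (250 before and 50 after the start, build GRCm38.p6) were found for 29 of the 39 members, in 37 windows. The response element core, GAAA and GAAA with any 2 bases between them, was searched on both strands (TTTC and TTTC with any 2 bases between them on the other) and was present in 35.1% of the member windows and in 3.44% of all 32851 windows. A match is a description of letters and not evidence of binding. Core matches lay in 12 members, and in 9 of them before the start site. These 9 stretches follow with up to 20 bases on either side, cut at the start site, read 5′ to 3′ on the strand of the gene, with the core matches in capitals.
Isg15, chr4:156200855-156200916, minus strand: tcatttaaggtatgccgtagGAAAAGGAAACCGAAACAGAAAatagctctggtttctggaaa
Oas3, chr5:120777705-120777754, minus strand: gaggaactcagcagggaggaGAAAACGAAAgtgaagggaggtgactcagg
Oas1a, chr5:120907526-120907565, minus strand: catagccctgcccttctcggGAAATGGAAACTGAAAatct
Trim30a, chr7:104465200-104465249, minus strand: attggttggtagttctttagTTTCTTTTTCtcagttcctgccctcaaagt
Bst2, chr8:71537567-71537622, minus strand: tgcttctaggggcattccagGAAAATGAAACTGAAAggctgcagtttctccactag
Stat2, chr10:128270256-128270305, plus strand: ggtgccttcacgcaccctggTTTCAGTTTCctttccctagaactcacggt
Rsad2, chr12:26456543-26456592, minus strand: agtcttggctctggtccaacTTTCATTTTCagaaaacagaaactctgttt
Ifit3, chr19:34583353-34583436, plus strand: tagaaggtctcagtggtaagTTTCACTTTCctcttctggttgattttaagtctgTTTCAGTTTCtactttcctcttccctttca
Ifit1, chr19:34640765-34640833, plus strand: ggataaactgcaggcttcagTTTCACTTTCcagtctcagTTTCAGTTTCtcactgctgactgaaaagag
Isg15 had 3 overlapping matches, the first of them beginning at position -78 from the start site, and Oas1a and Bst2 had 2 overlapping matches each, from -20 and -130. Ifit3 and Ifit1 each had 2 separate matches, from -156 and -104. In Ifih1, Ddx58 and Eif2ak2 the match lay after the start site. The 12 members with a match had a median log2 fold change of -0.48 with hairpin 2 against control, and the 17 whose windows held no match had -0.48 too. The 10 members with no window had -0.68.

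The facts of the whole series that bear on these genes were few. Library totals ran from 15322163 to 17342554 counts, and the lowest count of any member in any library was 10, for Ifi44 in replicate 2 of hairpin 2. Levels are given as CPM, counts scaled to a common library size with TMM factors, always in the order of replicates 1, 2 and 3. Fbxo38 stood at 21.7, 31.3 and 30.8 CPM in control, 35.1, 20.99 and 22.03 in the libraries labelled hairpin 1, and 20.96, 11.4 and 11.9 with hairpin 2. Hairpin 2 lay below every control, at a log2 fold change of -0.92 (SE 0.29, 95% interval -1.56 to -0.28); the adjusted p from edgeR was 0.254. For the libraries labelled hairpin 1 the value was -0.098 (SE 0.28, 95% interval -0.73 to 0.53); the adjusted p from edgeR was 1.00. Those libraries are therefore called by their label. A pair of libraries stood apart at opposite ends of the leading principal component, which held 35.9% of the variance. These were replicate 1 labelled hairpin 1, at 60.5, and replicate 2 of hairpin 2, at -54.7, while the other 7 lay between -21.4 and 30.7. Mitochondrial transcripts took 6.29% of the counts in the former and 2.12% to 4.47% in the other libraries. Melanocyte and melanoma markers (Pmel, Mlana, Tyr, Tyrp1, Dct, Mitf and Sox10) were all present in every library and summed to 20473 to 26930 CPM.

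The first question was how strongly the members were expressed and what they had in common across the tumours. Per kilobase of the longest transcript, the mean over all libraries ran from 1.04 CPM for Ifi44 to 259 CPM for Bst2, which encodes tetherin, a membrane protein that holds budding viruses on the cell. Lgals3bp, a secreted glycoprotein gene, followed at 189 CPM per kilobase, then Ifi35 at 24.5 and Isg15 at 23.0. The median member stood at 8.18 CPM per kilobase. The members differed more between libraries of the same group than most genes did. The SD within groups of log2(CPM + 1) had a median of 0.77 over the members, against 0.217 over all tested genes. Such a spread was not particular to the members. The median was 0.68 over further interferon stimulated genes, 1.12 over interferon gamma leaning genes, 1.13 over macrophage markers and 1.21 over fibroblast markers. It was 0.57 over T cell markers, 0.35 over endothelial markers and 0.21 over melanocyte and melanoma markers. Between the lowest and the highest library, 37 of 39 members differed at least 2-fold and 9 at least 10-fold. Zbp1, a sensor of Z-form nucleic acid, spanned 36.3-fold, and Adar, the RNA-editing enzyme that marks cellular RNA as self, spanned 1.73-fold.

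The order of the libraries was shared across members. Of the 3 controls, replicate 2 was the highest for 34 of 39 members (34.8% of all tested genes) and replicate 3 the lowest for 31 (29.1%). Replicate 1 labelled hairpin 1 was the highest of its group for 34 members (38.6% of all tested genes), and replicate 3 the lowest for 36 (33.2%). Replicate 3 of hairpin 2 was the highest of its group for 37 members (37.9%), and replicate 2 the lowest for 35 (33.5%). Over all 9 libraries, replicate 2 of hairpin 2 was the lowest for 32 members (19.0%), and replicate 1 labelled hairpin 1 the highest for 20 (19.1%). Each group thus held a library with high and a library with low levels of these genes. A level per library, the median over members of the deviation of log2(CPM + 1) from the mean of the gene, put replicate 1 labelled hairpin 1 at 0.77, control replicate 2 at 0.67 and replicate 3 of hairpin 2 at 0.52. It put replicate 2 of hairpin 2 at -1.20, replicate 1 of hairpin 2 at -0.49 and replicate 3 labelled hairpin 1 at -0.49. The other 3 libraries lay at 0.19, -0.087 and 0.27 (control replicates 1 and 3, and replicate 2 labelled hairpin 1). Replicates 2 and 3 of hairpin 2, with the lowest Fbxo38 levels of all 9 libraries (11.4 and 11.9 CPM), lay at -1.20 and 0.52.

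**Figure D1:**
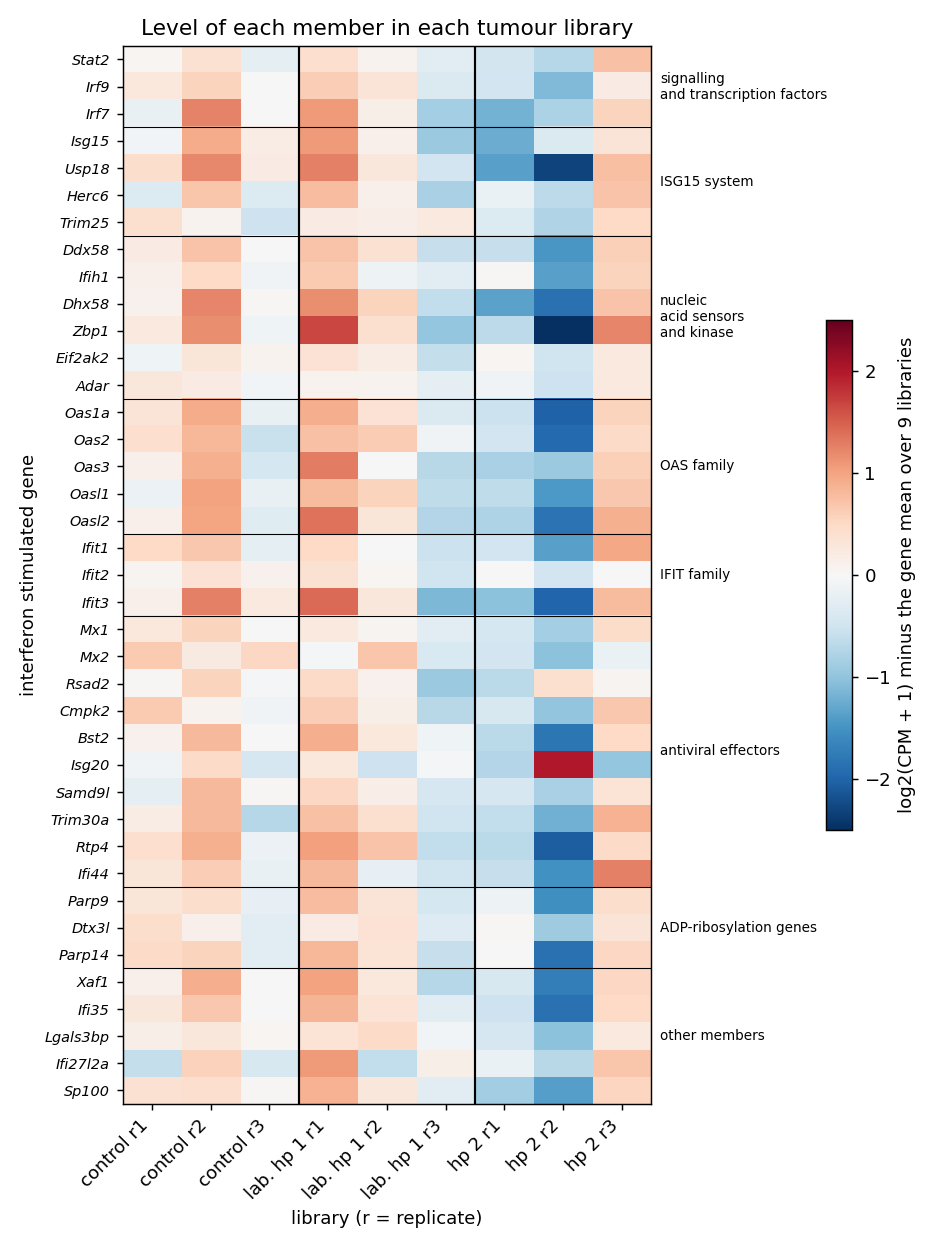
Deviation of log2(CPM + 1) from the mean of each gene over 9 libraries (colour) for the 39 members (rows, by role) in each library (columns, lab. hp 1 for labelled hairpin 1, hp 2 for hairpin 2). Replicate 2 of hairpin 2 is the lowest library for 32 of 39 rows, and Isg20 is the 1 row in which it is the highest.

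The transcription factors of the pathway are themselves induced by interferon. Irf9, the DNA-binding part of ISGF3, stood at 44.7, 55.4 and 37.6 CPM in control, 57.3, 46.6 and 28.9 in the libraries labelled hairpin 1, and 26.3, 16.7 and 43.3 with hairpin 2. Stat2, its partner, stood at 26.3, 33.2 and 21.4 CPM in control, 34.3, 26.8 and 20.8 in the libraries labelled hairpin 1, and 18.1, 15.03 and 42.3 with hairpin 2. Irf7, which amplifies interferon production, stood at 12.2, 34.2 and 13.9 CPM in control, 30.4, 15.5 and 7.32 in the libraries labelled hairpin 1, and 5.59, 7.57 and 20.96 with hairpin 2. In all 3 genes control replicate 2 was the highest control and the groups overlapped. With hairpin 2 against control, Irf9 had a log2 fold change of -0.67 (SE 0.36), Irf7 one of -0.82 (SE 0.69) and Stat2 one of -0.10 (SE 0.38). None passed edgeR's adjusted p threshold of 0.05.

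The ISG15 system attaches a ubiquitin-like protein to other proteins. Trim25, a ubiquitin ligase that activates RIG-I, stood at 84.03, 67.5 and 44.1 CPM in control, 73.5, 71.6 and 75.6 in the libraries labelled hairpin 1, and 49.95, 37.04 and 89.4 with hairpin 2. Herc6, the mouse ligase that attaches ISG15, stood at 15.99, 33.9 and 15.9 CPM in control, 35.5, 22.3 and 11.2 in the libraries labelled hairpin 1, and 18.01, 12.7 and 33.995 with hairpin 2. Isg15, the modifier itself, stood at 14.5, 29.9 and 17.5 CPM in control, 33.3, 16.8 and 7.58 in the libraries labelled hairpin 1, and 5.90, 11.8 and 19.4 with hairpin 2. Usp18, which removes ISG15 and damps the receptor, ran from 1.55 CPM in replicate 2 of hairpin 2 to 29.2 in replicate 1 labelled hairpin 1. The groups overlapped in all 4. Usp18 had a log2 fold change of -1.16 (SE 0.89) with hairpin 2, while Trim25, with -0.15 (SE 0.32), and Herc6, with -0.022 (SE 0.52), lay closer to 0. Uba7 and Ube2l6, the enzymes that activate and carry ISG15, were outside the member list. Uba7 stood at 20.4, 35.5 and 16.4 CPM in control, 39.97, 23.7 and 13.01 in the libraries labelled hairpin 1, and 11.7, 7.45 and 31.98 with hairpin 2. Within each group its libraries stood in the same order as the level of the members. Ube2l6 stood at 75.8, 134 and 78.9 CPM in control, 128, 88.5 and 40.7 in the libraries labelled hairpin 1, and 41.1, 188 and 94.7 with hairpin 2, and its highest value lay in replicate 2 of hairpin 2.

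Among the sensors of nucleic acid, Adar stood at 91.8, 88.03 and 71.98 CPM in control, 80.2, 80.9 and 64.3 in the libraries labelled hairpin 1, and 71.1, 52.96 and 90.2 with hairpin 2. Ddx58, which encodes the RNA sensor RIG-I, stood at 45.8, 65.5 and 40.2 CPM in control, 66.02, 51.7 and 26.4 in the libraries labelled hairpin 1, and 26.2, 13.9 and 60.5 with hairpin 2. Eif2ak2, which encodes the RNA-activated kinase PKR, stood at 31.7, 42.4 and 36.6 CPM in control, 44.6, 39.4 and 22.3 in the libraries labelled hairpin 1, and 35.5, 24.03 and 40.8 with hairpin 2. The highest library was 4.75-fold the lowest for Ddx58, 1.73-fold for Adar and 2.00-fold for Eif2ak2, and in each gene the groups overlapped. Zbp1, Ifih1 (the sensor MDA5) and Dhx58 (its regulator LGP2) spanned 2.09 to 75.7, 6.92 to 30.8 and 2.98 to 33.002 CPM, each lowest in replicate 2 of hairpin 2. With hairpin 2 the log2 fold changes of all 6 sensor genes were negative, from -1.01 for Dhx58 to -0.14 for Eif2ak2, with none past the threshold.

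The OAS genes encode enzymes that, on double-stranded RNA, make the messenger that activates RNase L, and related proteins without that activity. Oas1a stood at 33.2, 50.9 and 22.8 CPM in control, 50.3, 34.1 and 20.1 in the libraries labelled hairpin 1, and 17.8, 5.73 and 39.2 with hairpin 2. Oasl2 stood at 26.6, 49.1 and 19.5 CPM in control, 63.3, 29.9 and 14.1 in the libraries labelled hairpin 1, and 13.7, 5.96 and 45.6 with hairpin 2. Oas2 stood at 10.03, 13.7 and 4.58 CPM in control, 12.6, 11.8 and 6.76 in the libraries labelled hairpin 1, and 4.89, 1.13 and 10.48 with hairpin 2. All 5 OAS genes were lowest in replicate 2 of hairpin 2, and all 5 were highest among the controls in replicate 2. Oas3 and Oasl1 ran from 2.45 to 14.8 and from 0.835 to 8.95 CPM. Log2 fold changes with hairpin 2 lay between -0.77 (Oas2) and -0.54 (Oasl2), and those in the libraries labelled hairpin 1 between -0.030 (Oas1a) and 0.18 (Oasl2).

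IFIT proteins bind viral RNA and block its translation. Ifit2 stood at 42.97, 53.3 and 44.3 CPM in control, 53.9, 42.6 and 28.9 in the libraries labelled hairpin 1, and 40.7, 29.2 and 41.5 with hairpin 2. Ifit3 stood at 28.6, 63.1 and 30.7 CPM in control, 70.8, 31.9 and 11.4 in the libraries labelled hairpin 1, and 12.3, 5.79 and 45.9 with hairpin 2. Ifit1 stood at 12.9, 14.8 and 7.496 CPM in control, 13.1, 8.81 and 5.87 in the libraries labelled hairpin 1, and 6.09, 2.86 and 18.3 with hairpin 2. Ifit2, with an SD within groups of 0.32, varied less than most members but more than the median tested gene (0.217). Every hairpin 2 library lay below every control in it by a small margin (41.5 against 43.0 CPM at the nearest). The same was seen in 10.2% of all tested genes. The log2 fold change of Ifit2 was -0.33 (SE 0.22, 95% interval -0.83 to 0.16); the adjusted p from edgeR was 0.507. It was -0.20 without replicate 2 of hairpin 2 and -0.42 without replicate 3 of hairpin 2. Ifit3 varied 12.2-fold, with -0.94 (SE 0.89, 95% interval -3.03 to 1.16), and overlapped between groups.

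The antiviral effectors were the largest role group, with 10 members. Bst2 stood at 196, 319 and 182 CPM in control, 341, 219 and 168 in the libraries labelled hairpin 1, and 114, 51.4 and 257 with hairpin 2. Rsad2, which encodes viperin, an enzyme that makes a chain-terminating nucleotide, stood at 57.2, 81.9 and 54.4 CPM in control, 78.3, 59.8 and 28.7 in the libraries labelled hairpin 1, and 34.5, 73.8 and 58.5 with hairpin 2. Samd9l, an antiviral growth regulator, stood at 26.1, 53.98 and 31.2 CPM in control, 44.2, 34.03 and 22.4 in the libraries labelled hairpin 1, and 22.5, 16.997 and 39.1 with hairpin 2. Bst2 had a log2 fold change of -0.72 (SE 0.56, 95% interval -2.04 to 0.59) with hairpin 2 and Samd9l one of -0.50 (SE 0.39). Rsad2 departed from the common order, since replicate 2 of hairpin 2 was the highest library of its group for it. Cmpk2, a mitochondrial nucleotide kinase gene next to Rsad2, ran from 11.03 to 36.7 CPM, Rtp4, a receptor transport protein gene, from 3.16 to 34.2, Trim30a, a damper of Toll-like receptor signals, from 4.23 to 21.1 and Ifi44 from 0.596 to 9.87. In all 4 the lowest library was replicate 2 of hairpin 2. Mx1 and Mx2 encode dynamin-like antiviral proteins, and most laboratory mouse strains carry defective copies of both. Mx1 ran from 1.55 to 5.82 CPM.

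A pair of effector genes is named after their values were seen. Mx2 stood at 4.65, 3.20 and 4.16 CPM in control, 2.49, 4.78 and 1.77 in the libraries labelled hairpin 1, and 1.57, 0.775 and 2.19 with hairpin 2, with every hairpin 2 library below every control. The log2 fold change of Mx2 was -1.40 (SE 0.47, 95% interval -2.45 to -0.36); the adjusted p from edgeR was 0.265. It was the 1 member at an unadjusted p under 0.05 in edgeR, against 14.4% of all tested genes. Every hairpin 2 library lay below every control in 10.2% of all tested genes. Counts of Mx2 were low, from 13 to 78, and DESeq2 gave it no adjusted p in this comparison. Isg20, an RNA exonuclease gene, stood at 10.9, 16.6 and 8.39 CPM in control, 14.2, 7.80 and 11.3 in the libraries labelled hairpin 1, and 6.59, 49.5 and 5.42 with hairpin 2, and replicate 2 of hairpin 2 lay above every other library. Its log2 fold change with hairpin 2 was 0.78 (SE 0.81, 95% interval -1.12 to 2.67). Without that library it was -1.003, so its direction rested on it. The same library held 2.04% of its counts in globin transcripts, against 0.0429% to 0.481% in the others, and erythroid markers (Hba-a1, Hba-a2, Hbb-bs, Hbb-bt and Alas2) summed to 21462 CPM there. All 5 of these markers were detected in every library. Over the libraries these markers summed to 2539 to 4967 CPM in control, 1033 to 1489 in those labelled hairpin 1 and 421 to 21462 with hairpin 2. Their part in the levels of Isg20, Ube2l6 and Rsad2 was not tested.

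Parp9, Dtx3l and Parp14 act in protein ADP-ribosylation and in DNA damage and interferon signalling. Parp14 stood at 65.5, 69.1 and 39.1 CPM in control, 84.5, 60.2 and 31.4 in the libraries labelled hairpin 1, and 46.7, 12.1 and 67.4 with hairpin 2. Parp9 stood at 56.6, 62.02 and 39.6 CPM in control, 78.04, 56.97 and 33.4 in the libraries labelled hairpin 1, and 41.4, 15.1 and 62.4 with hairpin 2. Dtx3l stood at 64.1, 51.04 and 38.8 CPM in control, 54.1, 60.2 and 37.4 in the libraries labelled hairpin 1, and 47.7, 24.9 and 58.8 with hairpin 2. All 3 were lowest in replicate 2 of hairpin 2. Parp9 and Dtx3l lie head to head with overlapping exons, so their counts cannot be told apart there if counting ignored strand.

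Of the remaining members, Lgals3bp stood at 467, 513 and 435 CPM in control, 532, 587 and 403 in the libraries labelled hairpin 1, and 313, 206 and 498 with hairpin 2. Ifi35, which encodes a partner of the protein Nmi, stood at 36.1, 48.2 and 29.6 CPM in control, 54.4, 37.7 and 24.7 in the libraries labelled hairpin 1, and 20.4, 7.40 and 42.4 with hairpin 2. Xaf1, a gene linked to cell death, stood at 19.5, 33.98 and 17.7 CPM in control, 36.7, 21.5 and 10.4 in the libraries labelled hairpin 1, and 13.2, 4.65 and 25.9 with hairpin 2. These 3 were lowest in replicate 2 of hairpin 2, as were Sp100, a nuclear body gene at 6.50 to 34.5 CPM, and Ifi27l2a, at 0.775 to 5.03 CPM. Lgals3bp had a log2 fold change of -0.48 (SE 0.28, 95% interval -1.11 to 0.16).

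**Figure D2:**
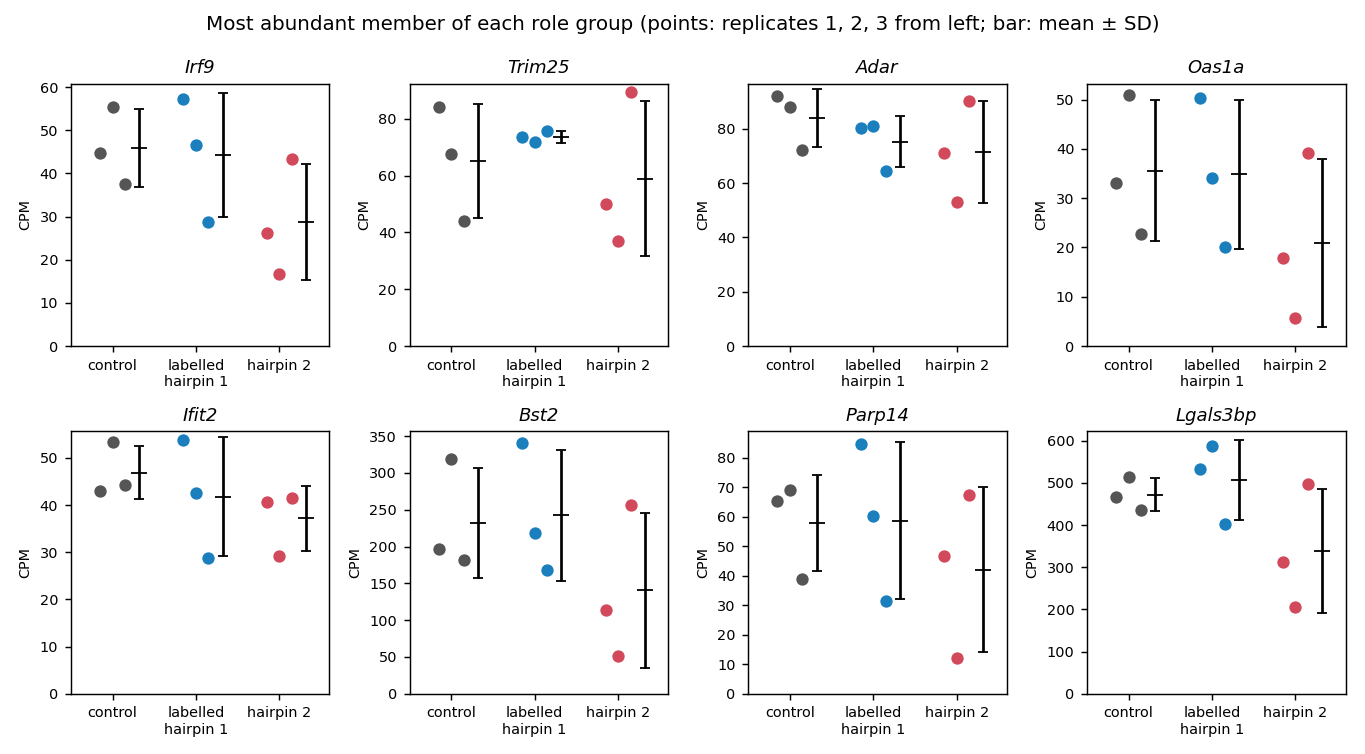
CPM (vertical axes, from 0) of the most abundant member of each role group in the 3 control libraries (grey), the 3 labelled hairpin 1 (blue) and the 3 with hairpin 2 (red), with the mean ± SD beside each group. Apart from Ifit2, whose hairpin 2 libraries all lie below the controls (41.5 against 43.0 CPM at the nearest), the groups overlap in every panel. Of all tested genes, 10.2% have every hairpin 2 library below every control.

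The next question was whether the members differed between the groups. The comparisons of either hairpin with control used the same 3 control libraries. In the libraries labelled hairpin 1 against control, 0 of 39 members passed edgeR's threshold (0.0% of 14193 tested genes), and 0 had an unadjusted p under 0.05 (3.17% of tested genes). DESeq2 called 0 members as well (0.0% of tested genes). Of the members, 22 had a negative log2 fold change (47.4% of tested genes) and 17 a positive (52.6%), with a median of -0.030 against 0.012 over all tested genes. No member lay wholly below or above the controls (4.3% and 4.09% of tested genes). The extremes were Ifi27l2a at 0.61 (SE 0.76, 95% interval -1.08 to 2.30) and Mx2 at -0.41 (SE 0.46, 95% interval -1.43 to 0.60). The median changed side with the libraries: it was 0.20 without control replicate 2 and 0.24 when replicate 3 labelled hairpin 1 was left out. It was -0.089 without control replicate 1, -0.21 without control replicate 3 and -0.39 without replicate 1 labelled hairpin 1.

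With hairpin 2 against control, 0 of 39 members passed edgeR's threshold (0.0% of tested genes; lowest member adjusted p = 0.265) and 1 had an unadjusted p under 0.05 (14.4% of tested genes). DESeq2 gave an adjusted p to 33.0 of the 39 members and called 0 of these (2.14% of tested genes, and 3.1% of the 9784.0 with an adjusted p). The 6.0 members to which it gave none were Oas3, Oasl1, Mx1, Mx2, Ifi44 and Ifi27l2a. Of the members, 37 had a negative log2 fold change (48.5% of tested genes) and 2, Isg20 and Ifi27l2a, a positive (51.5%), and the median was -0.51 against 0.012 over all tested genes. The 95% intervals of 38 of the 39 included 0. In 2 members, Ifit2 and Mx2, every hairpin 2 library lay below every control (10.2% of tested genes), and in 0 every library lay above (10.6%). Without replicate 2 of hairpin 2 the median was -0.24 and 28 members were negative. Without control replicate 2 it was -0.25, and it was -0.24 without both libraries that stood apart. Without replicate 3 of hairpin 2 it was -1.24, and 23 members then had an unadjusted p under 0.05 (16.8% of 14534 tested genes), still with 0 past the adjusted threshold.

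**Figure D3:**
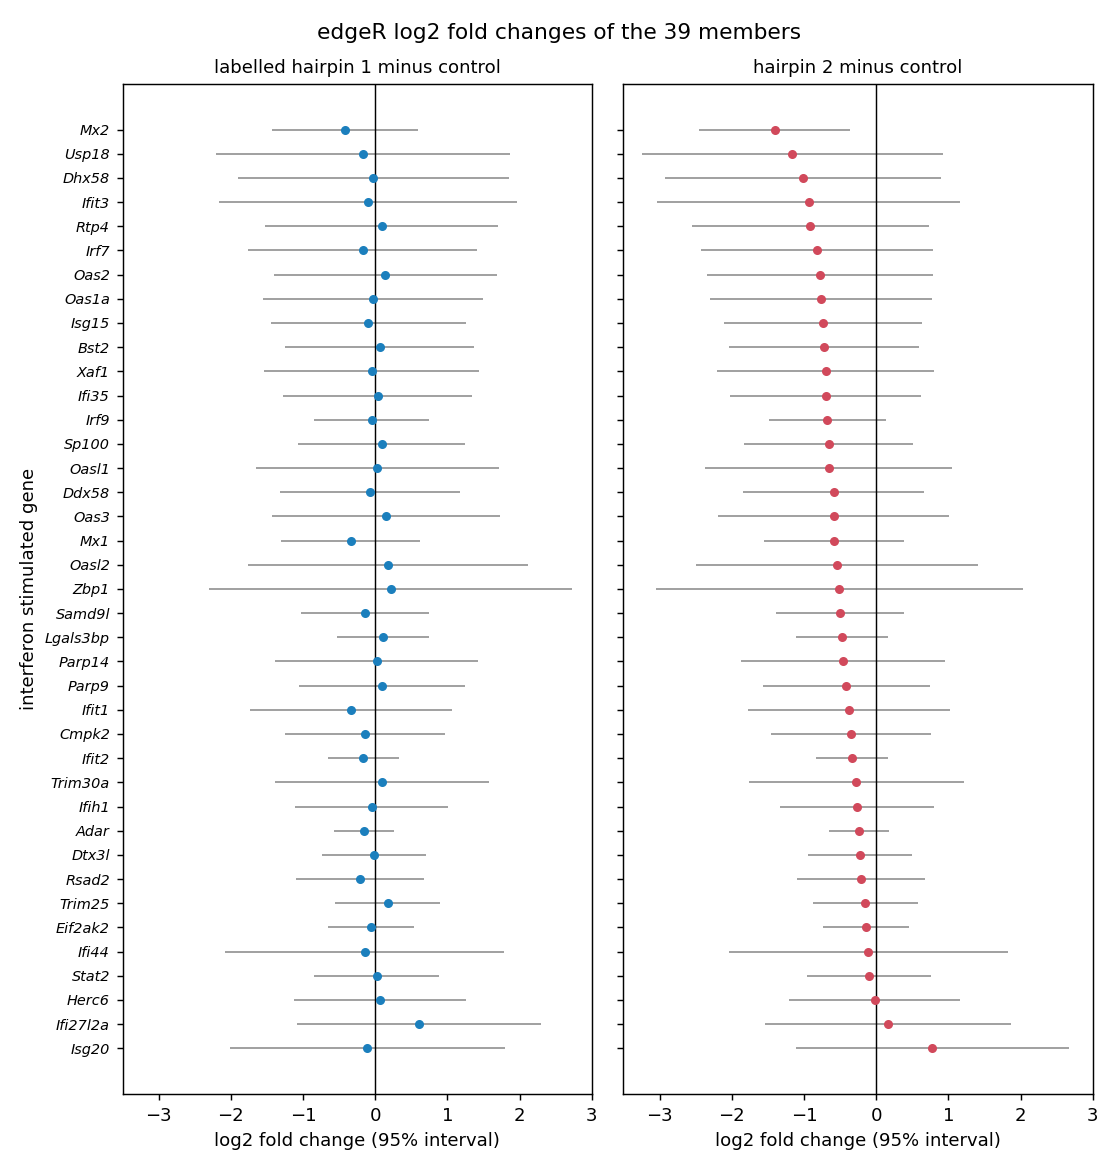
Log2 fold change (horizontal axes) with its 95% interval for the 39 members (rows, by their value with hairpin 2) in the libraries labelled hairpin 1 (left) and with hairpin 2 (right), each against the same 3 controls. On the right 37 points lie below 0 and 38 of 39 intervals include 0, while on the left 22 points lie below 0.

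Hairpin 2 was also compared with the libraries labelled hairpin 1 directly. Here 0 of 39 members passed edgeR's threshold (0.0% of tested genes; lowest member adjusted p = 0.447), 0 had an unadjusted p under 0.05 (11.7%), and DESeq2 called 0 of the 33.0 members to which it gave an adjusted p (0.628% of tested genes, and 0.885% of the 10056.0 with an adjusted p). The log2 difference was negative for 37 members (49.8% of tested genes), with a median of -0.52 against 0.0011 over all tested genes. It was positive for 2 members (50.2% of tested genes), Ifi44 at 0.041 (SE 0.85) and Isg20 at 0.89 (SE 0.82). No member lay wholly below or above (7.67% and 8.31% of tested genes). Leaving out replicate 1 labelled hairpin 1 brought the median to -0.095, leaving out replicate 2 of hairpin 2 brought it to -0.23, and leaving out both of these gave 0.15, so the direction of this difference rested on those libraries. The median was -0.78 when replicate 3 labelled hairpin 1 was left out. It was -1.21 without replicate 3 of hairpin 2, where 21 members had an unadjusted p under 0.05 (16.7% of 14534 tested genes).

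**Figure D4:**
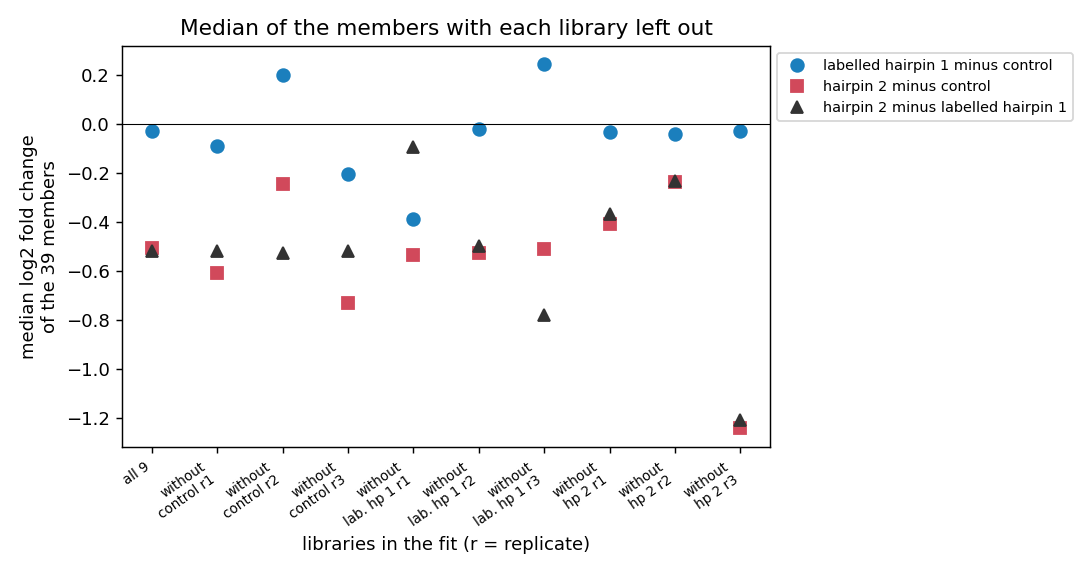
Median log2 fold change of the 39 members (vertical axis) for each of the 3 comparisons, fitted on all 9 libraries and with each library left out (horizontal axis). For hairpin 2 against control the values run from -1.24 to -0.24, and for the libraries labelled hairpin 1 against control from -0.39 to 0.24, on both sides of 0.

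The other genes of the pathway were read in the same fit. Of 20 type I and III interferon genes, 19, among them Ifnb1 and the Ifna genes, were listed at 0 in every library. Ifnz was listed at up to 0.196 CPM. A count of 0 allows up to 3 counts, which is 0.177 to 0.202 CPM in these libraries. Trex1, a DNA-degrading enzyme gene, was listed at 0 in every library too. Whether these zeros arose in the counting, whose tool and annotation are not given, was not tested. Ifng, the interferon gamma gene, stood at 0, 0.196 and 0.357 CPM in control, 0.474, 0.269 and 0 in the libraries labelled hairpin 1, and 0, 0.0596 and 0.914 with hairpin 2 and was not tested. The 9 receptor and proximal signalling genes had a median SD within groups of 0.200, against 0.77 for the members. Jak1 stood at 122, 122 and 114 CPM in control, 117, 135 and 111 in the libraries labelled hairpin 1, and 123, 148 and 139 with hairpin 2. Ifnar1 stood at 142, 80.6 and 83.9 CPM in control, 73.5, 158 and 142 in the libraries labelled hairpin 1, and 129, 141 and 159.9 with hairpin 2. Il10rb, a receptor chain of type III interferon, ran from 70.4 to 118 CPM. Of these 9 genes, 0 passed the threshold in any of the 3 comparisons, and the median log2 fold change with hairpin 2 was 0.16. The gene of this list with the largest SD within groups (0.44) was Ifnar1.

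Genes that induce interferon or restrain its signal gave 0 calls in the 3 comparisons. Of 14 induction genes 13 were tested, with a median of -0.060 with hairpin 2, 8 of them negative. Tmem173, which encodes the DNA-sensing adaptor STING, stood at 49.5, 75.3 and 78.4 CPM in control, 84.96, 60.2 and 42.4 in the libraries labelled hairpin 1, and 34.4, 38.4 and 71.04 with hairpin 2. Samhd1, which depletes nucleotides, ran from 46.7 to 119 CPM, Mavs, the adaptor of RIG-I, from 45.8 to 57.3, and Irf3 from 32.9 to 49.2. The 6 feedback inhibitors had a median of -0.22 with hairpin 2. Among them Socs3 stood at 21.5, 57.4 and 27.8 CPM in control, 46.8, 31.1 and 21.1 in the libraries labelled hairpin 1, and 21.3, 19.4 and 31.7 with hairpin 2, while the phosphatase gene Ptpn11 stayed within 161 to 192 CPM, Ptpn6 within 50.9 to 86.1 and Pias1 within 26.7 to 38.4.

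Further interferon stimulated genes outside the member list were fixed as a list of 39, of which 38 were in the files and 35 tested. With hairpin 2 against control 29 of the 35 were negative, with a median of -0.35, and in the libraries labelled hairpin 1 11 were negative, with a median of 0.098. None passed the threshold. Ifitm3, which blocks viral entry, stood at 245, 371 and 202 CPM in control, 450.3, 327 and 205 in the libraries labelled hairpin 1, and 157, 60.3 and 299.5 with hairpin 2. Ifi27 stood at 172, 270.2 and 140.2 CPM in control, 246, 281 and 162 in the libraries labelled hairpin 1, and 119, 85.05 and 209 with hairpin 2. In 29 of the 35 replicate 2 of hairpin 2 was the lowest of the 9 libraries. Rnf213 and Znfx1 ran from 126 to 311 and from 76.3 to 153 CPM, both highest in replicate 3 of hairpin 2.

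Of 22 genes listed as leaning towards interferon gamma, 21 were tested, and 0 passed in the 3 comparisons. With hairpin 2 against control 20 were negative (median -0.38), and in the libraries labelled hairpin 1 5 were negative (median 0.17). Irgm1, an immunity-related GTPase gene, stood at 229, 331 and 194 CPM in control, 435, 213 and 98.7 in the libraries labelled hairpin 1, and 155, 34.1 and 267 with hairpin 2. Igtp, another such GTPase gene, stood at 145, 248 and 125 CPM in control, 365, 150.3 and 61.9 in the libraries labelled hairpin 1, and 83.3, 10.7 and 216 with hairpin 2. Gbp2, which encodes a guanylate-binding protein, stood at 129, 176 and 93.9 CPM in control, 294, 118 and 64.9 in the libraries labelled hairpin 1, and 109, 17.5 and 242 with hairpin 2. All 21 were lowest of the 9 libraries in replicate 2 of hairpin 2. Psmb10, an immunoproteasome subunit gene, ran from 22.4 to 227 CPM. The level of this list per library ran from -2.38 to 1.29, against -1.20 to 0.77 for the members, and whether the lists differ was not tested.

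By level per library, markers of macrophages and T cells were highest in the 3 libraries in which the members were highest. So were markers of monocytes and of leukocytes in general, while markers of some other cells were not. For conventional dendritic cells this held narrowly, with levels of 0.063 in replicate 1 labelled hairpin 1 and 0.039 in replicate 2. It did not hold for their sums. These were 23.8 CPM in replicate 3 of hairpin 2, 18.7 and 16.7 in replicates 2 and 1 labelled hairpin 1, and 16.3 in control replicate 2. The 4 monocyte markers lay at 1.18 in control replicate 2, 1.12 in replicate 1 labelled hairpin 1 and 0.59 in replicate 3 of hairpin 2. The 9 macrophage markers (Adgre1, Csf1r, Cd68, C1qa, C1qb, C1qc, Mrc1, Fcgr1 and Mertk) were detected in every library. They summed to 175, 387 and 150.1 CPM in control, 435, 159.9 and 198 in the libraries labelled hairpin 1, and 166, 42.6 and 530.3 with hairpin 2. All 9 were highest among the controls in replicate 2, and 8 of 9 were lowest among the hairpin 2 libraries in replicate 2. The 10 T cell markers summed to 5.49, 17.4 and 5.53 CPM in control, 23.4, 6.39 and 6.12 in the libraries labelled hairpin 1, and 3.77, 1.37 and 16.8 with hairpin 2, with Cd3e at 0 in replicate 2 of hairpin 2 and Cd2 at 0 there, in replicate 1 of hairpin 2 and in replicate 2 labelled hairpin 1. Both lists, like the members, were high in replicate 2 of the controls, in replicate 1 of those labelled hairpin 1 and in replicate 3 of hairpin 2. The order differed between replicates 2 and 3 labelled hairpin 1, where the level per library of the macrophage markers was -0.29 and 0.049 and that of the members 0.27 and -0.49. The 5 neutrophil markers were S100a8, S100a9, Csf3r, Mmp8 and Ly6g, the last at 0 in every library. Their level was highest in replicate 2 of hairpin 2, at 0.507, where the members were lowest. It was nearly as high, at 0.485, both in control replicate 2 and in replicate 1 labelled hairpin 1, where the members were highest. Their sum was highest in control replicate 2, at 10.3 CPM, against 8.77 CPM in replicate 2 of hairpin 2. B cell and conventional dendritic cell markers varied less, from -0.18 to 0.29 and from -0.24 to 0.31. In replicate 2 of hairpin 2 they stood at 0.030 and -0.13. The 10 general leukocyte markers summed to 469.96, 480.1 and 314 CPM in control, 567, 448 and 412 in the libraries labelled hairpin 1, and 359, 258 and 531 with hairpin 2, a sum in which Arhgdib took 190 to 349 CPM. Siglech, which defines plasmacytoid dendritic cells, the main source of type I interferon among blood cells, was at 0 in 4 libraries and at most 0.244 CPM. Over the 6 markers of those cells the sums were 32.5 to 43.4 CPM in control, 34.8 to 49.0 in the libraries labelled hairpin 1 and 39.7 to 58.1 with hairpin 2, almost all from Tcf4 and Pacsin1. The 7 fibroblast markers (Col1a1, Col1a2, Col3a1, Dcn, Lum, Pdgfra and Pdgfrb) summed to 209.9, 416 and 177 CPM in control, 3276, 265 and 759 in the libraries labelled hairpin 1, and 285, 481 and 1412 with hairpin 2. They were high in the same library of each group as the members, and 0 of the 7 were lowest among the hairpin 2 libraries in replicate 2. The 7 endothelial markers (Pecam1, Cdh5, Kdr, Tie1, Tek, Emcn and Plvap) summed to 161, 183 and 169 CPM in control, 268, 185 and 237 in the libraries labelled hairpin 1, and 168, 318 and 210.5 with hairpin 2, with their highest sum in replicate 2 of hairpin 2. With hairpin 2 against control all 7 fibroblast and all 7 endothelial markers had positive log2 fold changes (medians 1.76 and 0.40), and in the libraries labelled hairpin 1 too (medians 2.45 and 0.39), with 0 past edgeR's threshold. The part of these cell types in the levels of the members was not tested.

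**Figure D5:**
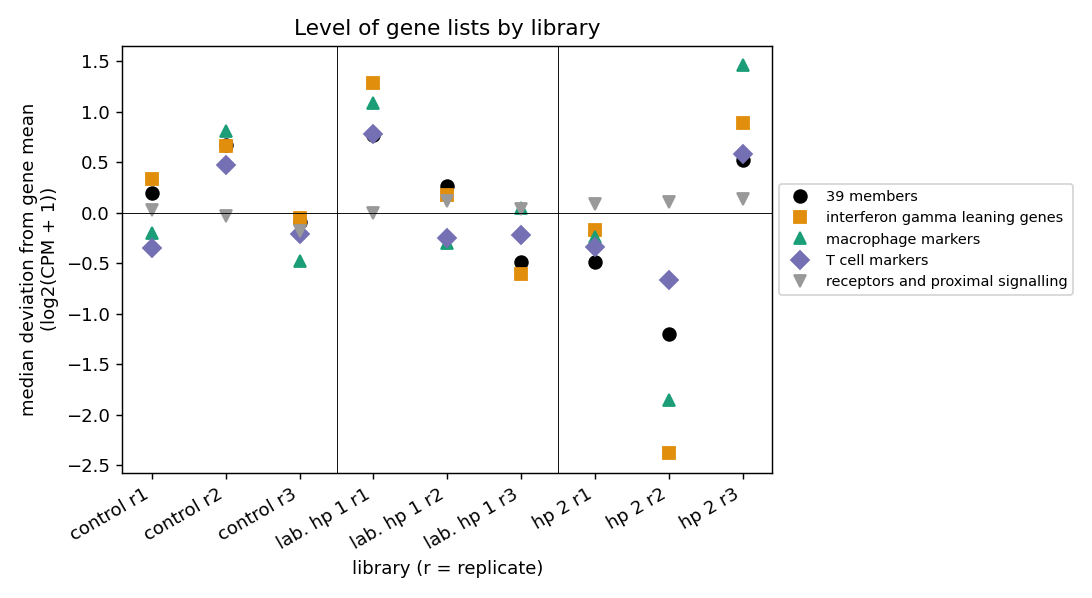
Level of gene lists per library, as the median over genes of the deviation of log2(CPM + 1) from the mean of the gene (vertical axis), for the 39 members, interferon gamma leaning genes, macrophage markers, T cell markers, and receptors with proximal signalling genes. The members lie at 0.77, 0.67 and 0.52 in the 3 libraries in which macrophage and T cell markers are also highest, and at -1.20 in replicate 2 of hairpin 2, the lowest library of every list shown but the receptors.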

How the data were processed

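Whole-number gene counts from 9 tumour libraries were used as the authors deposited them, with 1 column per library and no normalization. STAR 2.7.0d and Cufflinks are named in the submitters' processing notes, with GRCh38 and hg38, which are human builds. The gene symbols are those of mouse. Not given in the sources used here are the counter, the annotation and whether strand was used. In GENCODE M21 (GRCm38) 14 of the 39 members have exons that overlap another gene, among them Irf7, Irf9, Adar, Parp9 and Dtx3l, and close copies such as Ifit3 and Ifit3b, Oas1a and Oas1g, and the Trim30 genes may share reads. Entries with the same symbol were kept separate.

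Counts were tested in R 4.3.3 with edgeR 4.0.16: genes were kept by filterByExpr with the groups given (at least 10 counts, and 15 in total), libraries were scaled by TMM, and the robust quasi-likelihood model took all 9 libraries and 3 groups, with Benjamini-Hochberg adjustment over 14193 genes and a threshold of 0.05. DESeq2 1.42.0, other scalings, filters and fits, and leaving out each library were alternatives. The edgeR and DESeq2 steps were also run on simulated counts. Genes varied independently there, unlike the members here, and no result above rests on that run. Chi-square values per degree of freedom for pairs of libraries were 20.7 to 74.3 within groups and at least 10.6 between groups. The lowest was between control replicate 1 and replicate 3 labelled hairpin 1. Each library was counted as its own sample, though these values cannot show whether libraries came from separate animals. Levels per library use log2(CPM + 1). Transcript lengths came from GENCODE M21 and start-site windows from RefSeq. The members and the lists were chosen with earlier results of these data known. For each role group the 3 members of highest mean CPM are given in every library, and from each pathway list up to 4 genes by mean CPM, with exceptions named. A few genes of the pathway and marker lists are not reported here, and the list counts and sums are without them.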

Additional observations from a re-analysis of the deposited data

How the results depend on the processing

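No member passed the adjusted threshold in any of the 3 comparisons under any edgeR setting run. DESeq2 called none of those it gave an adjusted p, which were 39 for the libraries labelled hairpin 1 against control and 33.0 for either hairpin 2 comparison. Over all genes, edgeR called 0 in each comparison. For hairpin 2 against control it called 4 genes without the filter on low counts and DESeq2 called 303; leaving out each library gave 0 to 2, with 2 only without replicate 1 of hairpin 2. For hairpin 2 against the libraries labelled hairpin 1 these counts were 2, 89 and 0 to 1, with 1 only without that same library. The cause of these differences was not tested, and 2046 and 1655 genes had an unadjusted p under 0.05. Leaving out each library moved the median of the members from -1.24 to -0.24 for hairpin 2 against control, from -1.21 to -0.095 for hairpin 2 against those labelled hairpin 1, and from -0.39 to 0.24 for those labelled hairpin 1 against control. Without both libraries that stood apart, chosen after seeing the data, the second of these was 0.15. With trends over GC content and transcript length taken out, also chosen after seeing the data, the medians were -0.57, -0.54 and -0.077. With the replicate number as a block they were -0.55, -0.57 and -0.026, with 0 genes called and 1498 at an unadjusted p under 0.05 for hairpin 2 against control. No sign was seen that the numbers pair the libraries: deviations of same-numbered libraries correlated by -0.409 to 0.139. The best match in another group had the same number in 3 of 18 cases. With 3 libraries in each group this check cannot exclude pairing. Other size factors, no filter, DESeq2 and fits of only the groups compared gave medians of -0.53 to -0.52 for both hairpin 2 comparisons. With an SE of 0.19 to 1.08 (median 0.57) on the log2 scale for hairpin 2 against control, a 2-fold difference was not detectable for most members.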

Other observations

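The 3 genes Irf5, Tlr7 and Tlr9, through which myeloid cells sense nucleic acid and induce interferon, named here after their values were seen, were highest in replicate 1 labelled hairpin 1 or replicate 3 of hairpin 2. Irf5, a transcription factor of myeloid cells, stood at 3.28, 8.56 and 5.12 CPM in control, 14.7, 4.98 and 4.55 in the libraries labelled hairpin 1, and 4.39, 0.775 and 11.6 with hairpin 2. Tlr7, a receptor for single-stranded RNA, was highest in replicate 3 of hairpin 2 at 6.15 CPM and ran from 0.714 to 2.61 CPM in the other libraries. Tlr9, a receptor for DNA, ran from 0.119 CPM in replicate 2 of hairpin 2 to 3.72 CPM in replicate 3. Mb21d1, which encodes the DNA sensor cGAS, was highest in replicate 1 of hairpin 2, at 12.95, 10.4 and 8.03 CPM in control, 7.46, 8.48 and 13.2 in the libraries labelled hairpin 1, and 13.4, 13.3 and 10.8 with hairpin 2. None of these 4 genes passed edgeR's threshold in the 3 comparisons.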
